A study of Mus musculus with 141 samples.

Results

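Transcript levels of 10 proliferation genes were examined by RNA-seq in the liver, lung and kidney of the same mice. The genes are *Rrm2*, *Top2a*, *Cdk1*, *Ccna2*, *Ccnb1*, *Aurkb*, *Birc5*, *Bub1*, *Plk1* and *Mki67*. They were chosen by name as standard markers of cycling cells, and all 10 were found by symbol among the 24423 genes listed for each library. The animals were adult male mice, 8 to 12 weeks of age, and belonged to 47 Collaborative Cross strains, inbred lines that carry recombined genomes of a common set of founders, with 1 mouse for each strain. Each mouse gave 1 library of liver, 1 of lung and 1 of kidney, so there were 47 libraries per tissue. No group was treated with an agent: every mouse of every group had spent 6 hours on weekdays over 2 weeks in a chamber that delivered clean air, and the tissues were whole organs. With 1 mouse per strain, an effect of strain cannot be told apart from an effect of the single animal or of its library, and p-values between tissues measure the spread over these mice.

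A cell that enters the division cycle switches on a shared program of genes in waves, first those for DNA synthesis and later those for mitosis. *Rrm2* encodes the small subunit of ribonucleotide reductase, which makes deoxyribonucleotides in S phase, and *Top2a* encodes the topoisomerase that untangles replicated chromosomes. *Cdk1* encodes the kinase that drives entry into mitosis, and *Ccna2* and *Ccnb1* encode cyclins A2 and B1, which activate it. *Aurkb* and *Birc5* (survivin) encode the kinase and a partner subunit of the chromosomal passenger complex, *Bub1* a kinase of the spindle checkpoint and *Plk1* a kinase of mitotic entry and spindle assembly. *Mki67* encodes the Ki-67 protein that coats mitotic chromosomes and is the usual stain for cycling cells. Adult liver, lung and kidney hold few cycling cells: hepatocytes, tubule cells and alveolar cells are largely quiescent and divide mainly after injury, while immune cells in any of the tissues can divide. In a whole organ, fewer cycling cells and less of a transcript per cycling cell cannot be told apart.

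Many genes of this program share short promoter elements: the CCAAT box, and the cell cycle genes homology region, written TTTGAA or TTCGAA. The 250 bases before the annotated start were read from RefSeq promoters of GRCm38.p6, a later build than that of the deposited files, and 8 of the 10 genes had an entry; *Ccna2* and *Aurkb* had none. The promoters of *Mki67* (chr7:135716380-135716629, minus strand), *Top2a* (chr11:99024190-99024439, minus strand), *Cdk1* (chr10:69352913-69353162, minus strand) and *Rrm2* (chr12:24708004-24708253, plus strand) are shown. The first 3 held both motifs. *Rrm2* was added because its tissue pattern differed from that of *Mki67* below, and it held 1 CCAAT box alone. Capitals mark CCAAT or its reverse complement ATTGG, and TTTGAA, its reverse complement TTCAAA, or TTCGAA, which reads the same on both strands.
Mki67: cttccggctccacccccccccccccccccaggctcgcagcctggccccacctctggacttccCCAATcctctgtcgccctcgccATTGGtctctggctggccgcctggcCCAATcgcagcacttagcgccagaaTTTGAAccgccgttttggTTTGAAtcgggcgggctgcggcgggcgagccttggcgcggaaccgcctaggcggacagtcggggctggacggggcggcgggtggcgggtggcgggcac
Top2a: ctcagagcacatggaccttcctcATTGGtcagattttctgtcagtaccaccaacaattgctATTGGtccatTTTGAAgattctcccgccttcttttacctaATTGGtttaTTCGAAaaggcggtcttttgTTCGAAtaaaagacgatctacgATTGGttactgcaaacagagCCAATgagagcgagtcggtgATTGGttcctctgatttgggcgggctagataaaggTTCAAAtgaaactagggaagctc
Cdk1: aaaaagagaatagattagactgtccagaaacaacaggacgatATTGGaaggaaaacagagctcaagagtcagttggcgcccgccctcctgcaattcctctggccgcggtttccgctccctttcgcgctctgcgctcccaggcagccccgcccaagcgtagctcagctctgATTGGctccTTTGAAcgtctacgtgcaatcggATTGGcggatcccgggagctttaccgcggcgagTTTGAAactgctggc
Rrm2: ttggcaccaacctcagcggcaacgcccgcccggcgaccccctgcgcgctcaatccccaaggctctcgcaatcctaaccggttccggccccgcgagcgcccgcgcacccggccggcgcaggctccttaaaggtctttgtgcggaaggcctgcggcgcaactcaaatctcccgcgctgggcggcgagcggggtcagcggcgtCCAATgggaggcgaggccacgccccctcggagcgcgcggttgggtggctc

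On either strand, CCAAT was found in 7 of the 8 promoters, whereas 33.8% of 32851 promoters of the same length held it. The *Top2a* promoter held 6 copies, those of *Mki67* and *Cdk1* 3 each, those of *Ccnb1* and *Bub1* 2 each, and those of *Rrm2* and *Plk1* 1 each; *Birc5* held none in this window. The second motif was found in 3 of the 8, with 4 copies in *Top2a* and 2 each in *Mki67* and *Cdk1*, against 17.1% of all promoters. No base lay in both motifs. These are matches of letters and not measured binding sites. A relation of the motifs to the tissue patterns was not tested. Promoters without the second motif included those of *Ccnb1* and *Plk1* as well as that of *Rrm2*.

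The sum of expected counts of a library had a median of 10423382 in liver (lowest 1738046, highest 42158454), of 9338124 in lung (2829104 and 17585682) and of 8245850 in kidney (3046695 and 15028553). Marker lists matched the tissue labels: the summed TPM of 5 hepatocyte genes was at least 45167 in every liver library and at most 1506 in any other, that of 5 alveolar type 2 genes at least 15373 in lung and at most 199.6 elsewhere, and that of 5 proximal tubule genes at least 38309 in kidney and at most 1702 elsewhere, on values scaled within each tissue. At these depths the proliferation genes were counted by few reads in liver. With *Bub1* left aside, the median liver library held 2 counts of *Ccnb1* or *Aurkb* and 24 of *Mki67*, and the median lung library 7 counts of *Birc5* and 293 of *Mki67*. A count of 3 or less was treated as not resolved, and such counts made up 36 of 47 liver libraries for *Aurkb*, 33 for *Ccnb1* and 31 for *Plk1*.

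Levels were compared between genes in TPM, the deposited unit that corrects for transcript length and expresses a transcript relative to all others of its library. *Mki67* (NCBIM37 chr7:142881471-142908062) had TPM of 0.17 to 4.55 in liver (median 0.71), 3.96 to 26.28 in lung (median 10.07) and 0.68 to 19.25 in kidney (median 2.23). *Top2a* (chr11:98854257-98885503) followed closely, at 0.17 to 3.18 TPM in liver (median 0.62), 2.71 to 29.99 in lung (median 9.04) and 0.29 to 18.34 in kidney (median 2.26). For both genes the lung libraries stood apart from most of the liver libraries: 44 of 47 lung libraries exceeded every liver library for *Mki67* and 45 for *Top2a*, and in each of the 47 mice the lung value was above the liver value. Kidney lay between, with 8 libraries above every liver library for *Mki67* and 14 for *Top2a*.

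*Rrm2* (chr12:25393106-25399011), whose product makes deoxyribonucleotides, did not share this order. Its TPM was 0 to 6.92 in liver (median 2.31), 1.06 to 13.77 in lung (median 5.28) and 1.04 to 15.24 in kidney (median 5.01), so that lung and kidney overlapped almost completely and 24 of 47 mice had the higher TPM in lung. It was the member with the highest median TPM in liver and in kidney, and in lung it came after *Mki67*, *Top2a* and *Ccna2*.

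Of the kinase and its cyclins, *Ccna2* (chr3:36463788-36471072) had 0.25 to 2.89 TPM in liver (median 0.79), 1.48 to 14.41 in lung (median 5.34) and 0.81 to 8.54 in kidney (median 3.07). *Ccnb1* (chr13:101548605-101556525) had 0 to 1.53 TPM in liver (median 0.21), 0.56 to 8.59 in lung (median 2.5) and 0 to 9.31 in kidney (median 1.47). *Cdk1* (chr10:68799383-68815686) had 0.20 to 2.38 TPM in liver (median 0.71), 0.17 to 7.00 in lung (median 1.87) and 0 to 4.68 in kidney (median 1.11), and 15 lung libraries exceeded every liver library, against 40 for *Ccna2* and 36 for *Ccnb1*. The values of *Ccnb1* are uncertain in 1 respect: only uniquely aligned reads were counted, and 45.1% of the 50-base windows of its transcript occurred at most once in the genome, against 92.0% for *Mki67* and 92.6 to 100.0% for the other 8 genes.

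The spindle genes were low. *Plk1* (chr7:129302951-129313389) had 0 to 0.89 TPM in liver (median 0.34), 0.75 to 6.81 in lung (median 2.70) and 0 to 4.05 in kidney (median 1.09), and 44 of 47 lung libraries exceeded every liver library. *Aurkb* (chr11:68859149-68865166) had 0 to 1.39 TPM in liver (median 0.26), 0.24 to 6.20 in lung (median 2.28) and 0 to 5.04 in kidney (median 0.65). *Birc5* (chr11:117710565-117717069), whose protein works with that of *Aurkb*, had 0 to 2.72 TPM in liver (median 0.44), 0 to 2.57 in lung (median 0.76) and 0 to 1.64 in kidney (median 0.42). Its order depended on the scaling: the TPM was higher in lung than in liver in 34 of 47 mice, whereas the TMM-scaled CPM was higher in liver in 32 of 47.

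*Bub1* (chr2:127626858-127657601) was listed at 0 in all 47 liver libraries, in 31 lung libraries and in 45 kidney libraries, and it never exceeded 3 counts. *Bub1* and *Birc5* are the members for which the files name 2 transcripts, while the other 8 have 1. Among the 10 members and 30 further genes of G2 phase and mitosis, the median count over the libraries of all tissues was 0 for 10 of the 12 genes with more than 1 transcript and for 0 of the 28 genes with 1. Over all genes the corresponding shares were 41.2% of 6112 and 37.0% of 18311. The part that the number of transcripts played in the values of *Bub1* and *Birc5* was not tested, so a level near 0 is reported here as listed and not as absence of the transcript.

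**Figure D1:**
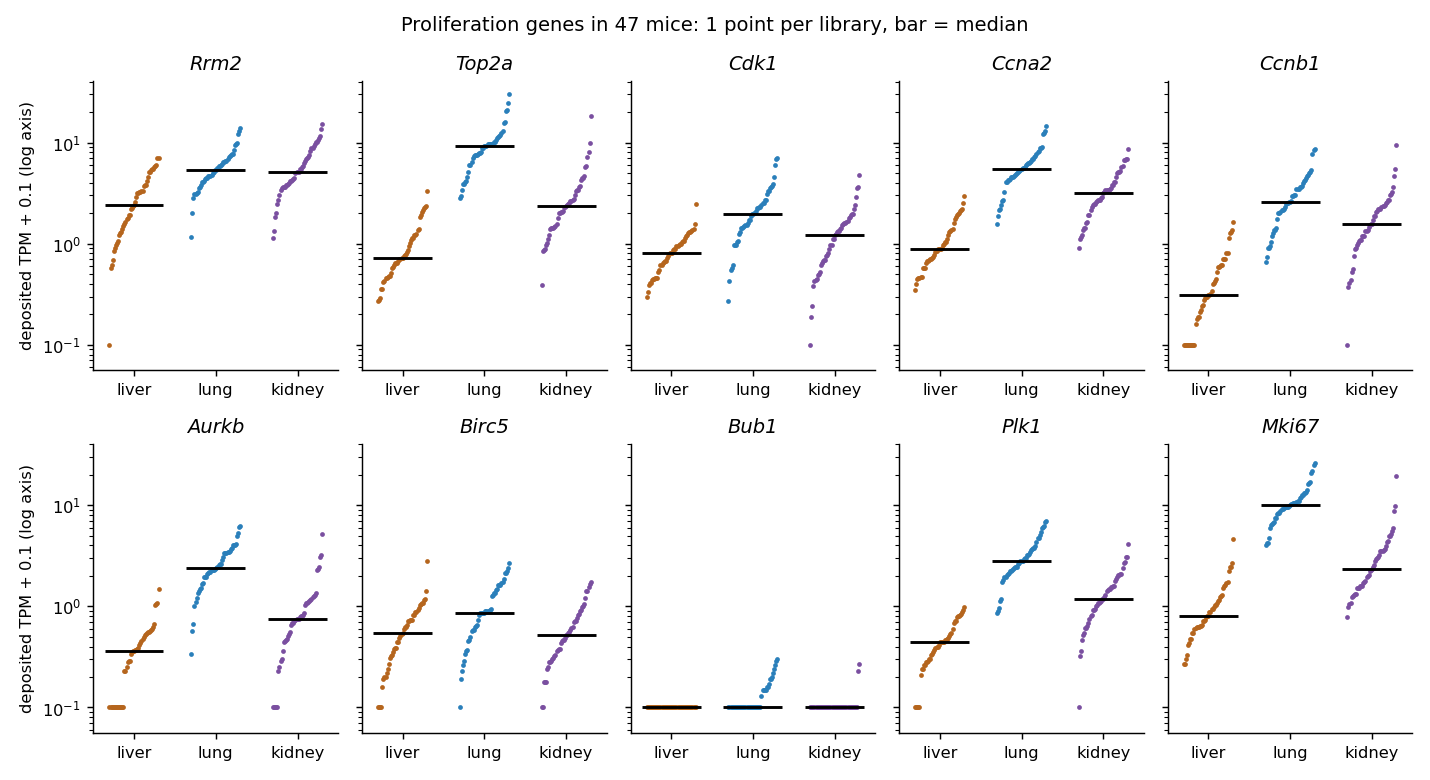
Deposited TPM of each of the 10 genes, with 0.1 added for the log axis, in liver, lung and kidney; each point is 1 of 47 libraries per tissue, sorted from left to right, and the bar is the median. *Mki67* and *Top2a* had lung medians of 10.07 and 9.04 against 0.71 and 0.62 in liver, *Rrm2* had nearly equal medians in lung and kidney (5.28 and 5.01), and *Bub1* lay at 0 in most libraries.

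The tissue comparisons asked which genes differ in abundance between organs of the same mouse. They were run with limma-voom on counts scaled by TMM, with strain and tissue in the model, over the 12127 genes with more than 1 CPM (a count scaled to the size of its library) in at least 30% of all libraries, and a gene was past the threshold at a Benjamini-Hochberg adjusted p (q) of at most 0.1 with a log2 fold change of 1 or more in size. Of the 10 genes, 8 passed the filter; *Birc5* and *Bub1* did not. Since lung supplied 47 libraries, over 30% of the total, a gene could pass on its lung values alone, so the counts that follow are descriptions.

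Lung exceeded liver for 6 of the 8 genes. On the log2 CPM scale the difference of liver from lung was -2.13 ± 0.11 (SE) for *Mki67* (4.36-fold, q = 1.22e-35), -1.94 ± 0.10 for *Top2a* (3.84-fold, q = 2.96e-33), -1.55 ± 0.17 for *Ccnb1*, -1.52 ± 0.17 for *Aurkb*, -1.43 ± 0.14 for *Plk1* and -1.08 ± 0.12 for *Ccna2* (q = 1.4e-14). In TMM-scaled CPM the lung value was the higher of the pair in 46 of 47 mice for *Mki67* and *Top2a*, and in 41 for *Ccna2*. By contrast, *Rrm2* differed by 0.30 ± 0.12 (q = 0.0152) and *Cdk1* by 0.10 ± 0.15 (q = 0.547), neither past the threshold. Among all genes tested, 55.0% were past it, 31.0% with the higher value in lung, and the median difference was -0.06, against -1.48 for the 8 genes. Immune markers were also highest in lung: in lung the median summed TMM-scaled TPM, scaled within each tissue, was 80.3 for the B cell list (liver 1.40, kidney 1.24), 26.9 for the T cell list (1.02 and 1.28) and 6.48 for the thymocyte list (0.448 and 0.792). Of the 5 thymocyte genes, 2 were at 0 in most lung libraries, and 1 alone had TMM-scaled TPM over 1 in most of them. The part of the immune markers in the difference was not tested.

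Liver and kidney were closer. *Ccnb1* alone was past the threshold, lower in liver by 1.40 ± 0.17 on the log2 scale (2.64-fold, q = 6.84e-13; -0.99 on the log2(TPM + 1) scale and there under the threshold), as were 36.4% of all genes, 20.8% with the higher value in kidney. Smaller differences of -0.75 ± 0.12 for *Ccna2* (q = 1.20e-08), -0.67 ± 0.11 for *Top2a* (q = 1.03e-08), -0.66 ± 0.11 for *Mki67* (q = 2.38e-08) and -0.62 ± 0.14 for *Plk1* (q = 3.16e-05) stayed under 1. The count depended on the scaling: on log2(TPM + 0.1) 7 of the 8 genes were past the threshold, among them *Ccna2* (-1.65), *Plk1* (-1.57), *Top2a* (-1.56) and *Mki67* (-1.54), where the median of all genes was -0.94. That scale also tested *Birc5* and *Bub1*, and neither was past the threshold (-0.06 for each). Over all genes 8250 were past the threshold on that scale, out of a larger set than that of the main fit. *Cdk1* had the opposite sign, 0.44 ± 0.15 (q = 0.00639), with the higher CPM in liver in 32 of 47 mice. With the threshold on fold change removed, 7 of the 8 genes passed, and *Rrm2* did not (-0.19 ± 0.12, q = 0.131). In that setting 10665 of the 12127 genes tested passed, so 7 of 8 is close to the background.

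Between lung and kidney, 3 genes were past the threshold, each higher in lung: *Mki67* by 1.46 ± 0.10 (2.76-fold, q = 8.11e-25), *Top2a* by 1.27 ± 0.10 (2.41-fold, q = 9.53e-22) and *Aurkb* by 1.18 ± 0.17 (2.26-fold, q = 1.07e-09; 0.94 on the log2(TPM + 1) scale and there under the threshold). Of all genes, 46.1% were past it, 25.5% with the higher value in lung. *Plk1* differed by 0.82 ± 0.14 (q = 6.04e-08), and *Cdk1* and *Ccna2* by 0.35 ± 0.15 and 0.33 ± 0.12. The cyclin *Ccnb1* differed by 0.15 ± 0.16 (q = 0.362), which could not be told from 0, while *Rrm2* was lower in lung by 0.48 ± 0.12 (q = 0.000108) in this scaling.

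The directions of *Cdk1* and *Rrm2* depended on how libraries were scaled. The median over the 12127 genes of the difference of liver from lung was -0.06 with TMM, -0.30 with DESeq2 size factors and -1.21 on the log2(TPM + 1) scale. *Cdk1* differed between liver and lung by 0.10, -0.14 and -0.75 in these 3 scalings, and *Rrm2* by 0.30, 0.05 and -0.91. Relative to the median gene, the differences of *Cdk1* were 0.15, 0.15 and 0.46 and those of *Rrm2* 0.35, 0.35 and 0.30, all towards liver in value. The SE of *Cdk1* was 0.15 in the first 2 scalings, as large as its difference. On the log2(TPM + 1) scale the added 1 exceeds the median liver TPM of *Cdk1* (0.71). On that scale the low genes *Birc5* and *Bub1* also lay towards liver, by 0.89 and 1.17. *Mki67* was lower in liver than the median gene by 2.07, 2.07 and 1.36 log2 units, and *Top2a* by 1.89, 1.89 and 1.19, so these 2 genes kept their direction. On the same relative scale *Aurkb*, *Plk1*, *Ccnb1* and *Ccna2* were lower by 1.03 to 1.5 with TMM but by 0.19 to 0.51 on the log2(TPM + 1) scale, where the added 1 exceeds their median liver TPM.

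**Figure D2:**
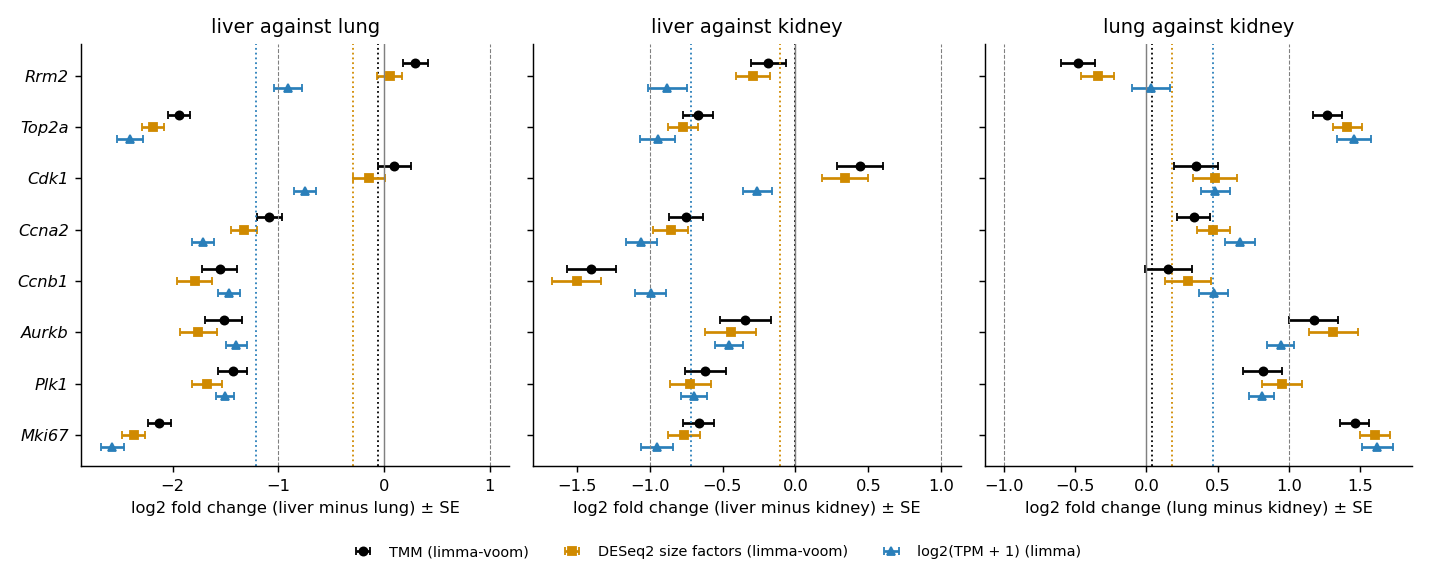
Log2 fold change ± SE between tissues of the 8 genes that passed the filter, with TMM (black), DESeq2 size factors (orange) and log2(TPM + 1) (blue); dotted lines are the median of the 12127 tested genes in the same scaling and dashed lines mark a log2 fold change of 1 in either direction. *Mki67* and *Top2a* lay left of the dotted line in liver against lung in all 3 scalings, while *Cdk1* and *Rrm2* lay right of it.

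A comparison that no library scaling can change is the ratio of 2 genes within a library. For each library the log2 ratio of a gene to *Mki67* was taken per length of transcript, with 0.5 added to each count, and compared between tissues of the same mouse by a two-sided sign-flip permutation test with 100000 draws over 15 comparisons; this measure was chosen after seeing the data. *Cdk1* was at -0.09 relative to *Mki67* in liver and at -2.46 in lung, a difference of 2.38 ± 0.14 (SE, n = 47 mice) that was positive in all 47 mice. *Rrm2* was at 1.53 in liver, -0.91 in lung and 1.07 in kidney, so that lung was lower than liver by 2.44 ± 0.18 (45 of 47 mice) and lower than kidney by 1.97 ± 0.12 (47 of 47 mice). For these 3 differences the permutation p was 1e-05, the smallest the draws can give (q = 1.5e-05). Of the proliferation genes tested between tissues, *Mki67* had the largest differences towards lung, -2.13 in liver against lung and 1.46 in lung against kidney. A ratio to it is therefore prone to be lower in lung for any other of these genes. The p-values test a difference from *Mki67* alone.

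*Top2a* behaved differently and kept a nearly fixed ratio to *Mki67*. The log2 ratio stood at -0.07 in liver, at -0.24 in lung and at -0.08 in kidney; the difference of liver from kidney was 0.01 ± 0.11 (permutation p = 0.95, q = 0.949) and of liver from lung 0.17 ± 0.11 (permutation p = 0.122, q = 0.140), which does not show that the ratios were equal. Lung was lower than kidney by 0.16 ± 0.07 (q = 0.0337 by permutation), and without the strains CC016, CC020 and CC040 the difference was -0.157 and no longer passed. *Ccna2* relative to *Mki67* was lower in lung than in liver by 1.15 ± 0.15 and than in kidney by 1.19 ± 0.09, with no detected difference between liver and kidney (-0.04 ± 0.13, q = 0.798 by permutation). *Ccnb1* and *Plk1*, too low in liver for this measure, were lower in lung than in kidney by 1.26 ± 0.13 and 0.74 ± 0.14.

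Other genes of the cell cycle were taken from lists by role and tested in the same fit. Of 30 further genes of G2 phase and mitosis, 18 passed the filter. Of all genes tested, 31.0% were higher in lung than in liver and 25.5% higher in lung than in kidney. In liver against lung 12 of the 18 were higher in lung and 0 in liver, with a median log2 difference of -1.46 against -0.06 for all genes; the 2 largest were *Espl1*, encoding separase (-2.61 ± 0.16, 6.09-fold), and *Kif23*, a kinesin of cytokinesis (-2.17 ± 0.12, 4.49-fold). In lung against kidney 6 were higher in lung and 0 in kidney, a count near the share of 25.5%, with a median of 0.83 against 0.04. The largest were *Anln*, encoding the cytokinetic scaffold anillin (2.27 ± 0.08), and *Bub1b*, a partner of *Bub1* in the spindle checkpoint (1.86 ± 0.16). In liver against kidney 3 were higher in kidney and 0 in liver, with a median of -0.44 against -0.003; that count is no larger than the share of 20.8% over all genes, and it includes the kinetochore kinesin *Cenpe* (-2.09 ± 0.13) and again *Kif23* (-1.84 ± 0.12). The numbers of genes with more than 1 transcript given beside *Bub1* include this list.

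The 25 genes of replication and nucleotide supply, of which 16 passed the filter, did not move in 1 direction. In liver against lung 3 were higher in liver and 3 in lung, with a median of -0.15. In liver against kidney 3 were higher in liver and 1 in kidney, and in lung against kidney 2 in lung and 1 in kidney. Of the 12127 genes, 2901 were higher in liver and 3763 in lung in the first comparison. In the second 1891 were higher in liver and 2521 in kidney, and in the third 3089 in lung and 2502 in kidney. The counts of the list were not tested against these. The replicative helicase subunits *Mcm4* and *Mcm6* were higher in lung than in liver by 1.44 ± 0.04 and 1.59 ± 0.15. The liver median of *Mcm6* was 0.08 TPM. *Gins1*, of the helicase complex, was higher in liver than in lung by 2.19 ± 0.13. In lung against kidney *Mcm3* and *Mcm4* were higher in lung by 1.61 ± 0.06 and 1.23 ± 0.04. In liver against kidney *Gins1* and *Ccne1*, encoding cyclin E1, were higher in liver by 1.57 ± 0.13 and 2.13 ± 0.16, and *Mcm2* was higher in kidney by 1.16 ± 0.06.

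Among 15 transcription factors and pocket proteins of the cycle, 8 passed the filter. In liver against lung 1 was higher in liver and 3 in lung, in liver against kidney 2 in each, and in lung against kidney 3 in lung and 0 in kidney. These counts of 8 genes were not tested against the numbers over all genes given for the replication list. *Foxm1*, which activates mitotic genes, was higher in lung than in liver by 2.03 ± 0.13 (4.10-fold, 46 of 47 mice). *E2f8*, an atypical E2F that represses cell cycle genes, ran the other way, at a median of 3.02 TPM in liver, 1.0 in lung and 0.15 in kidney, and was higher in liver than in lung by 2.95 ± 0.15 (47 of 47 mice) and than in kidney by 5.02 ± 0.16 (47 of 47 mice). Its relative *E2f7* was higher in liver than in kidney by 2.74 ± 0.23 and in lung than in kidney by 1.84 ± 0.23. *Rbl1*, encoding the pocket protein p107, was lower in liver than in lung by 1.97 ± 0.08 and than in kidney by 1.23 ± 0.08, and *Rb1* was lower in liver than in kidney by 1.37 ± 0.04. On the log2(TPM + 1) scale *E2f8*, *E2f7*, *Ccne1*, *Gins1* and *Mcm6* kept these directions, but the differences were under 1 for *E2f8* in liver against lung and in lung against kidney, and for the others in each comparison named.

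The spread between the 47 libraries of a tissue was set against counting error alone by an index of dispersion, which is 1 when libraries differ by counting only. In liver 8 of the 9 genes with a mean count of at least 1 exceeded it at q of at most 0.05, and all 9 did so in lung and in kidney; since 92.1% of the genes of liver, 93.6% of lung and 91.9% of kidney also did, this count is close to the background. *Plk1* in liver was the exception, with an index of 1.32 (q = 0.0753) at a mean of 3.36 counts. *Mki67* had an index of 33.1 in liver, 61.2 in lung and 58.7 in kidney, and of 16.9 in liver without CC016 and 34.1 in kidney without CC020.

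The size of the spread, as the biological coefficient of variation (BCV, the relative spread that remains after counting error), was greater in value in kidney and liver than in lung for *Mki67* and *Top2a*. *Mki67* had a BCV of 0.696 in liver, 0.352 in lung and 0.675 in kidney, and *Top2a* 0.669, 0.399 and 0.684, against medians over all genes of 0.317, 0.293 and 0.284. In kidney 11.6% of genes had a higher BCV than *Mki67*, and in lung 40.4% did. *Ccnb1* was the most variable member in liver (0.933), and *Aurkb* in kidney (0.725), both at few counts, whereas *Rrm2* had 0.579 in liver, 0.306 in lung and 0.425 in kidney. The difference in spread between tissues was not tested. Strain CC020 held the highest kidney value of 8 of the 10 genes, and without it the kidney BCV of *Mki67* was 0.565 and that of *Top2a* 0.576; without CC016 the liver BCV of *Mki67* was 0.596.

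The next question was whether a mouse that is high for 1 proliferation gene is high for the others. A gene entered in a tissue where its count was over 3 in at least 50% of the libraries, which left 6 genes of liver, 9 of lung and 7 of kidney, and 72 pairs. Pearson r and Spearman rho were computed over the 47 strains on rank inverse normal values of TPM scaled by TMM within the tissue, with permutation p-values from 100000 draws and q over the 72 pairs. In kidney all 21 pairs were called at q of at most 0.05, with r from 0.34 to 0.87 (median 0.55). In lung 30 of 36 pairs were called, with r from 0.13 to 0.74 (median 0.49), and in liver 6 of 15, with r from -0.09 to 0.76 (median 0.13).

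*Top2a* and *Mki67* formed the closest pair in each tissue. Over the 47 strains r was 0.870 in kidney (rho 0.889), 0.742 in lung (rho 0.715) and 0.762 in liver (rho 0.751), each with q = 3.79e-05 for r and 6e-05 for rho from permutation p-values at the smallest the draws can give, 1e-05. Without the 2 strains farthest from the median of *Top2a*, r was 0.850, 0.668 and 0.694. *Cdk1* joined this pair in kidney (r = 0.785 with *Top2a* and 0.726 with *Mki67*) and less closely in liver (0.420 and 0.604). Without the 2 farthest strains the liver value of *Cdk1* with *Top2a* was 0.273 and no longer called (q = 0.0929 by permutation). *Ccnb1* correlated with *Top2a* at 0.735 in lung and 0.683 in kidney.

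In liver *Rrm2* and *Birc5* stood outside the group. *Birc5* had a median of 5 counts there and was at 3 counts or less in 19 of 47 libraries. The part of counting error in its r was not tested. *Rrm2* had r of 0.04 to 0.20 with the other 5 genes and *Birc5* -0.09 to 0.09, none of these 9 pairs called, while the 6 called pairs were all those among *Top2a*, *Cdk1*, *Ccna2* and *Mki67*. In lung the gene outside the group was *Plk1*, which was called with *Mki67* (r = 0.332, permutation q = 0.0304) and *Top2a* (r = 0.316, permutation q = 0.0393) and with no other gene. The call with *Top2a* was lost without the 2 farthest strains (r = 0.247) and without CC016, CC020 and CC040 (r = 0.262), and that with *Mki67* without the latter (r = 0.279). In kidney *Plk1* had r of 0.36 to 0.57 with the other 6, all called. Differences in r between tissues were not tested. The values of a pair come from the same library and so share its depth and composition; r of the genes with the logarithm of depth ranged from -0.20 to 0.27. No label gives a batch, so no value within batches could be had. Leaving out the 2 farthest strains left 20, 24 and 5 pairs called in kidney, lung and liver, and leaving out CC016, CC020 and CC040 left 19, 23 and 6.

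**Figure D3:**
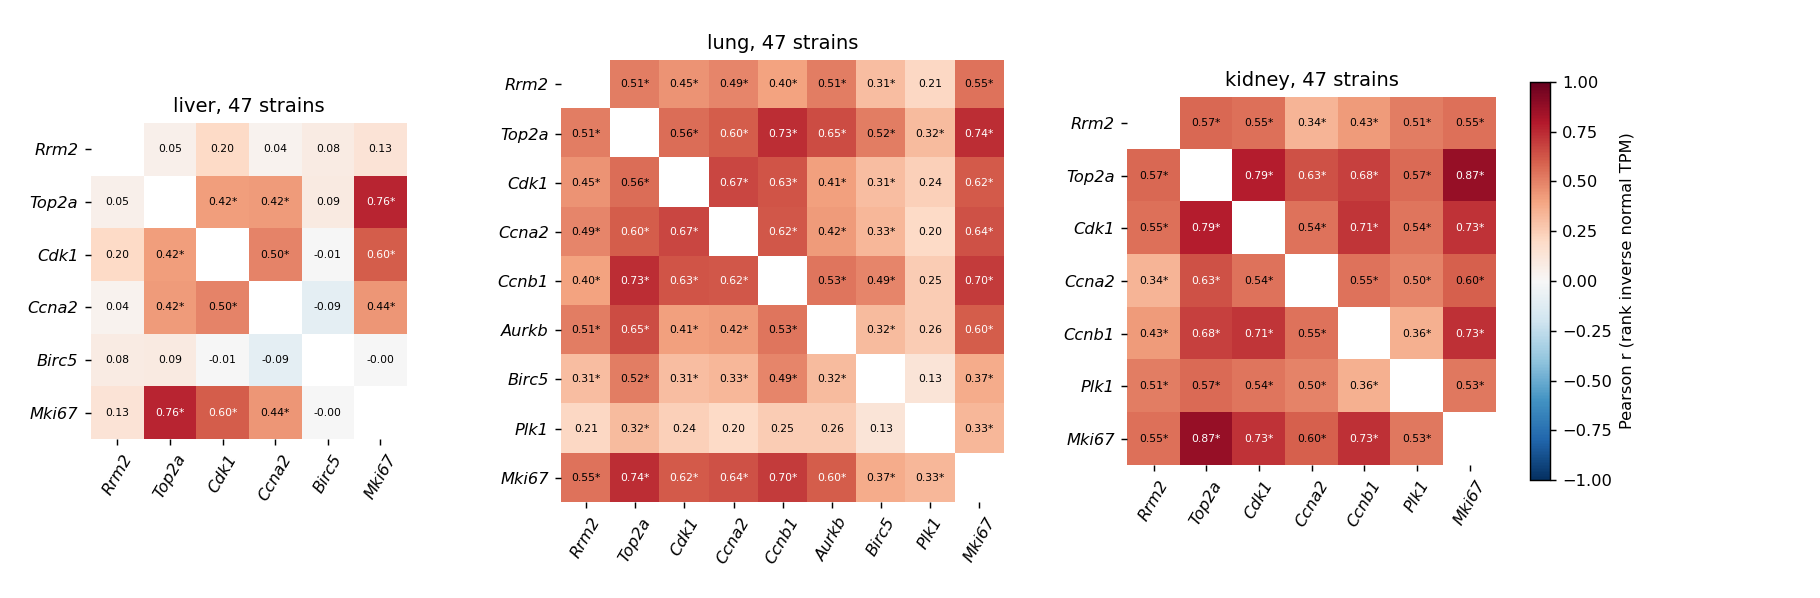
Pearson r over 47 strains between proliferation genes within liver (6 genes), within lung (9 genes) and within kidney (7 genes), on rank inverse normal TPM; an asterisk marks pairs with q of at most 0.05. All 21 pairs of kidney carry an asterisk, *Plk1* is pale in lung, and *Rrm2* and *Birc5* are pale in liver.

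Across tissues of the same mouse, agreement was weaker. Over 18 combinations of a gene and 2 tissues, 3 were called, all of *Mki67*: liver with kidney (r = 0.474, rho = 0.489, permutation p = 0.00082 and 0.00052, q = 0.0148), liver with lung (r = 0.410, rho = 0.397, permutation p = 0.00423 and 0.00606, q = 0.0381) and lung with kidney (r = 0.386, rho = 0.410, permutation p = 0.00725 and 0.00449, q = 0.0435). *Top2a* had r of 0.336 to 0.361 in the same pairs (q = 0.0566 to 0.0606 from permutation p-values), and *Rrm2* -0.10 to 0.22. When the 2 most extreme strains of each comparison were left out, r of *Mki67* was 0.416, 0.32 and 0.316 and none of the 18 was called. Leaving them out removes the ends of the ranked values, so it cannot tell whether the calls rest on those strains. On TPM without TMM 0 were called. Without CC016, CC020 and CC040, the 2 that involve liver were called.

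In kidney and liver the highest library stood well above the next, while in lung that gap was smaller in proportion. The sum of TMM-scaled TPM over the 10 genes, scaled within each tissue, had a median of 16.8 in kidney and a range from 6.09 in CC021 to 94.0 in CC020, with CC004 next at 59.2. In lung the median was 38.7, with 15.0 in CC037 and 93.7 in CC040, followed by CC042 at 80.8. In liver the median was 7.18, with 2.91 in CC012 and 22.3 in CC016, followed by CC045 at 14.3.

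**Figure D4:**
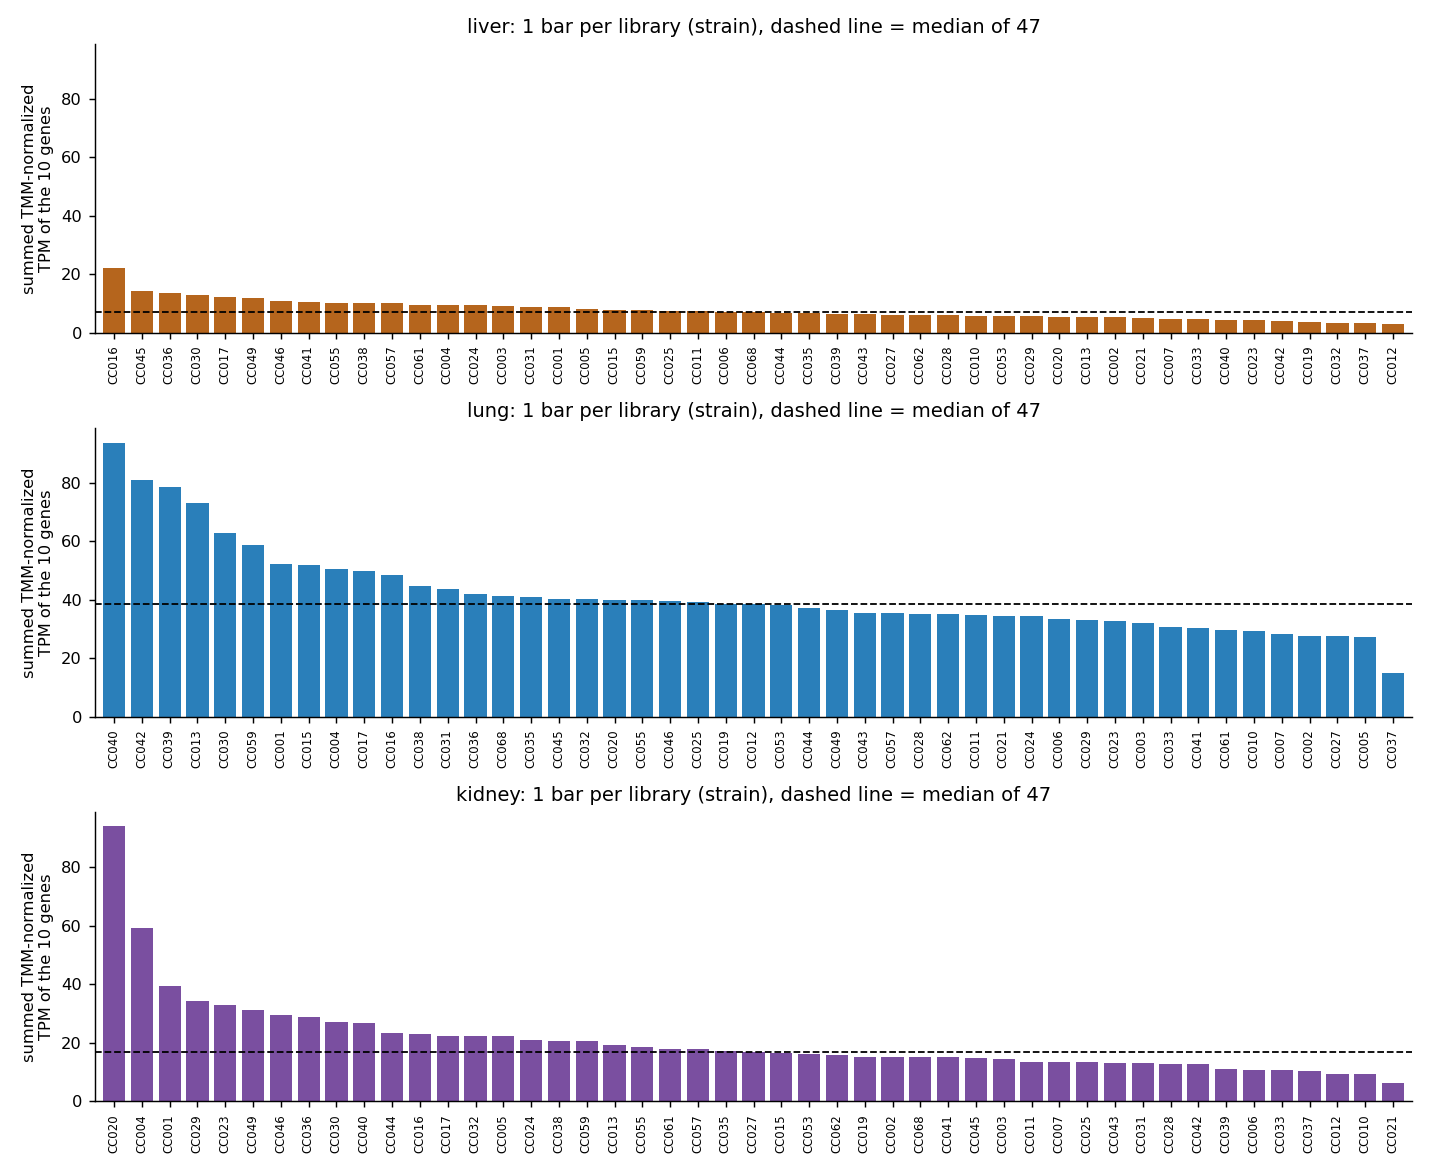
Sum over the 10 genes of TPM scaled by TMM within each tissue, for each of 47 libraries per tissue in descending order, on a linear axis from 0 with the median as a dashed line. CC020 stood out in kidney (94.0 against a median of 16.8), CC016 in liver (22.3 against 7.18), and CC040 led a more gradual series in lung (93.7 against 38.7).

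Kidney CC020 was the highest of 47 for *Rrm2*, *Top2a*, *Cdk1*, *Ccna2*, *Ccnb1*, *Aurkb*, *Plk1* and *Mki67*. *Mki67* stood at 19.25 TPM from 220 counts, against 9.65 in the next library, and *Top2a* at 18.34 TPM, against 9.75. The library was shallow, at 3717587 counts. Liver and lung of the same mouse did not stand out: the summed level was 5.54 in liver, rank 35 of 47, and 40.0 in lung, rank 19 of 47. The same kidney was the highest of 47 for the tubule injury list (271 summed TMM-scaled TPM, median of the others 15.1, highest of the others 46.1). Of its 5 genes *Lcn2*, *Krt20*, *Spp1* and *Vcam1* were the highest of 47, *Lcn2* at 167 against at most 31.4 elsewhere, and *Havcr1*, encoding kidney injury molecule KIM-1, was second at 7.79.

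The same library was the lowest of 47 for proximal tubule genes (38309 against a median of 87370 in the others) and for endothelial genes (53.1 against 77.6). It was the highest for the T cell list (23.9 against 0 to 6.43 in the others, with *Cd8a* at 0), the B cell list (11.9 against 0 to 8.17, with *Cd79b* at 0), the macrophage list (106 against 24.1 to 95.4, with *Marco* and *Clec4f* at 0) and the thymocyte list (3.50 against 0 to 2.35). Of the thymocyte genes *Cd8b1* alone was above 0, with *Rag1*, *Rag2*, *Dntt* and *Ptcra* at 0, and all 5 granulocyte precursor genes were at 0. The part of these cells in the level of the proliferation genes was not tested. Alveolar type 2 genes summed to 86.0 there, against 15373 or more in lung.

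Liver CC016 was the highest of 47 for *Mki67* (4.55 TPM from 153 counts) and *Top2a* (3.18 TPM), and between rank 3 and rank 8 for *Cdk1*, *Ccna2*, *Ccnb1*, *Aurkb*, *Birc5* and *Plk1*, but at rank 30 for *Rrm2*. Its macrophage list was the highest (452 against 55.3 to 269 in the others), with *Marco* at 163 against at most 56.3 elsewhere. Its T cell list was also the highest (16.2 against 0 to 5.71), as was its granulocyte precursor list (19.9 against 0 to 16.9), in which *Mpo*, *Elane*, *Ctsg* and *Ms4a3* were each the highest of 47. *Lcn2*, which hepatocytes also make in the acute phase, was at 707, second to 833 in another liver. In lung and kidney this mouse had ranks 11 and 12 of 47 for the summed proliferation genes. The part of these cells was not tested.

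Lung CC040 was the highest of 47 for *Rrm2*, *Top2a* and *Ccnb1* (29.99 TPM for *Top2a*) and second for *Mki67*, *Cdk1* and *Aurkb*. All 5 genes of the interferon response list were the highest of 47 there, with a sum of 638 against 18.6 to 105 in the others, *Isg15* at 332 against at most 27.0 and *Ifit1* at 213 against at most 44.9. The tubule injury list was the highest too (1114 against 97.0 to 438), but *Lcn2* made up most of that sum, at 998 against at most 372 elsewhere. In lung 3 of the 5 genes of this list were at 0 in most libraries. The macrophage list was also the highest (408 against 125 to 313). The endothelial list was the lowest (538 against 550 to 1008). The liver and kidney of this mouse ranked 41 and 10 of 47 for the summed proliferation genes. The part of these changes in the level of the proliferation genes was not tested. Without CC016, CC020 or CC040 in turn, the tissue comparisons had the same numbers of genes past the threshold as with all strains, 6, 1 and 3.

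**Figure D5:**
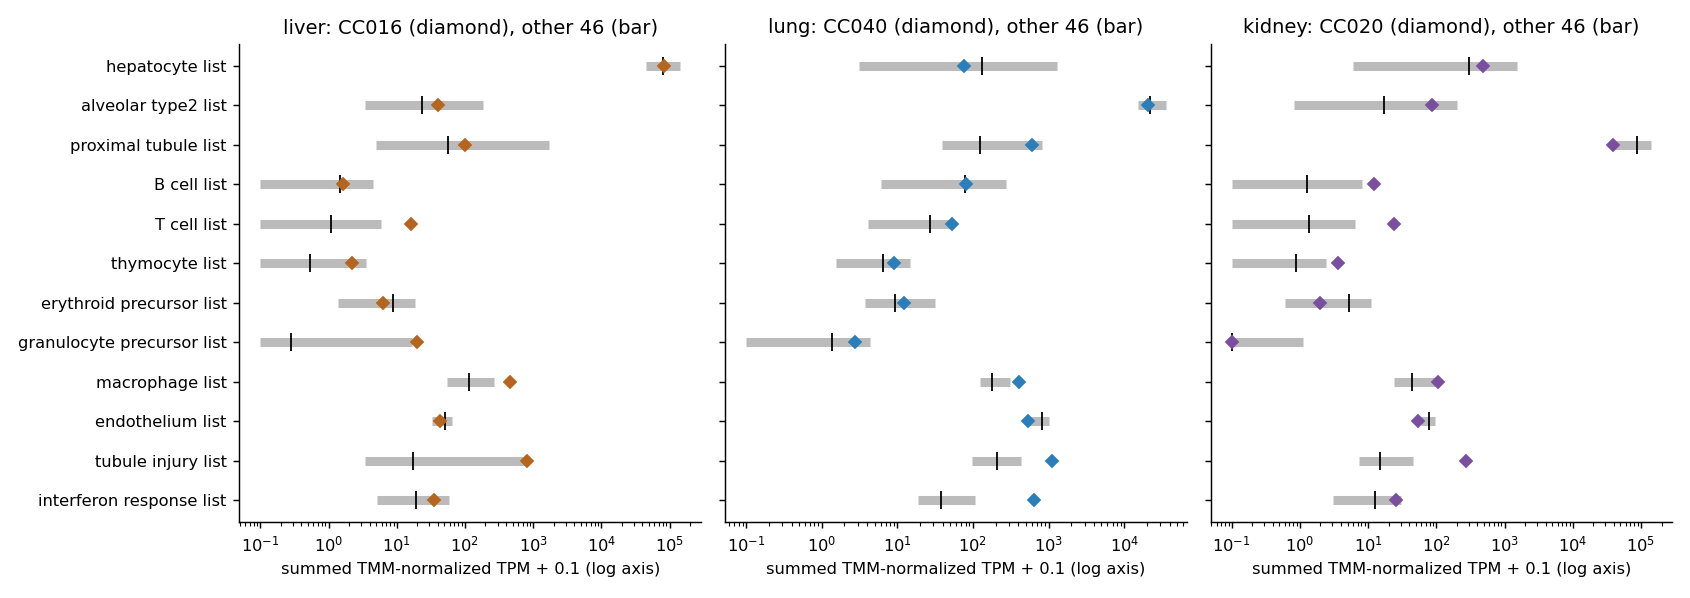
Summed TMM-scaled TPM of 12 marker lists, with 0.1 added for the log axis, in the library with the highest sum of proliferation genes in each tissue (diamond), beside the range (grey bar) and median (tick) of the other 46. Diamonds lie right of the bar for the tubule injury, T cell, B cell, thymocyte and macrophage lists in kidney CC020, the T cell, granulocyte precursor and macrophage lists in liver CC016, and the interferon response, tubule injury and macrophage lists in lung CC040. In lung CC040 *Lcn2* made up most of the tubule injury sum.

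Over all 47 strains, the proliferation genes were also correlated with the marker lists of their tissue, 264 combinations in all. At q of at most 0.05 over these, 6 were called: in kidney *Cdk1* (r = 0.541, rho = 0.479, permutation p = 0.00011 and 0.00075, q = 0.0290), *Mki67* (r = 0.471) and *Top2a* (r = 0.467) with the tubule injury list and *Mki67* with the macrophage list (r = 0.462), in lung *Mki67* with the interferon response list (r = 0.460), and in liver *Ccna2* with the proximal tubule list (r = 0.460). These counts depended on the scaling: on TPM without TMM 26 combinations were called in kidney, 82 in lung and 10 in liver. None of the 6 was called on rho (q = 0.124), without the 2 farthest strains, where r was 0.324 to 0.425, or without CC016, CC020 and CC040, where r was 0.359 to 0.449 for the 5 of kidney and lung and 0.506 for *Ccna2* in liver.

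The genes whose pattern over strains was most like the mean of the proliferation genes were named by the highest Pearson r over the 47 strains, with no test. In lung, among 12381 genes, they were *Cenpf* (r = 0.796), *Iqgap3* (0.782), *Hist1h1a* (0.781), *Hist1h1b* (0.767), *Aspm* (0.761), *Knl1* (0.760), *Cenpe* (0.750), *Kif11* (0.728), *Esco2* (0.725) and *Ccnb2* (0.722). *Cenpf*, *Knl1* and *Cenpe* encode kinetochore proteins, *Kif11* a spindle motor, *Aspm* a spindle pole protein, *Ccnb2* cyclin B2, and *Hist1h1a* and *Hist1h1b* linker histones. In kidney, among 10765 genes, they were *Kif11* (0.763), *Ccnb2* (0.758), *Pbk* (0.745), *Cdc20* (0.738), *Hist1h1a* (0.703), *Col3a1* (0.680), *Arhgap11a* (0.656), *Cdca3* (0.634), *Ncapg2* (0.625) and *Knstrn* (0.617). *Cdc20* encodes an activator of the anaphase-promoting complex, and *Col3a1* a fibrillar collagen of connective tissue.

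In liver, among 9001 genes, the closest patterns were those of *Rin2* (0.578), *Col3a1* (0.537), *Il1a* (0.530), *Rab31* (0.523), *Sh3bgrl* (0.518), *Col14a1* (0.510), *Fam111a* (0.502), 4930503L19Rik (0.495), *Jag1* (0.493) and *Orm2* (0.493). The list held a pair of collagens, the Notch ligand *Jag1* and the acute-phase gene *Orm2*, and its r values were lower than those of lung and kidney. The further genes of G2 phase and mitosis had a median r of 0.584 over 20 genes in lung, 0.566 over 10 in kidney and 0.430 over 3 in liver, against medians over all genes of -0.01, -0.02 and -0.04. The genes of replication had 0.253, 0.332 and 0.227. The mean of the proliferation genes and each of these genes come from the same libraries.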

How the data were processed

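RNA was taken from snap-frozen whole liver, lung and kidney of 1 male mouse from each of 47 strains, and libraries were made from total RNA with a minimum integrity number of 7.0 and removal of ribosomal RNA. The authors filtered 50-base single-end reads, aligned them with STAR (version 2.5.3a in the submitters' processing notes) to a pseudo-genome made for each strain from Build37 (mm9), and quantified uniquely aligned reads with RSEM. The expected count per gene and library was deposited by the authors on the scale of reads; 25 values over all files were not whole and were rounded. The TPM deposited by the authors divides these counts by transcript length and library size, so a TPM depends on the other transcripts of the library. The deposited FPKM column was not used.

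The 10 genes and the gene lists were chosen with earlier results of these data known. Groups were the tissues in the labels, and the same mouse gave all 3 tissues, which is where the pairing comes from: over 12127 genes, deviations from the tissue mean correlated within a mouse at a median r of 0.181 for liver with lung, 0.203 for liver with kidney and 0.220 for lung with kidney. Counts were scaled by TMM in edgeR 4.0.16 and tested with limma 3.58.1 (voom; strain and tissue as terms; CPM over 1 in at least 30% of libraries; q of at most 0.1 with a log2 fold change of 1 or more in size). Spread within a tissue was tested by the index of dispersion against a Poisson law (46 degrees of freedom, mean count of at least 1), with BCV from edgeR. Correlations used rank inverse normal values (offset 0.375) of TPM scaled by TMM within a tissue. The genes named are the 10 genes, the 2 genes per direction with the largest change past the threshold in each list, the 10 genes per tissue with the highest r, the libraries with the highest and lowest sums, and the markers. A gene of the replication list that this rule names is not reported here. On simulated data, 199 of 200 genes changed by 4-fold were recovered in lung against kidney with 0 false calls over 12076 genes. The simulation gave every gene the same spread, had no strain effect and changed no other gene between tissues, so it does not test the scaling. The alternatives were edgeR quasi-likelihood, DESeq2 1.42.0, its size factors, other filters and thresholds, no replicate block, log2(TPM + 1), log2(TPM + 0.1) and strains left out. Uniqueness of 50-base windows was counted in NCBIM37. R 4.3.3 and Python 3.11.15 were used.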

Additional observations from a re-analysis of the deposited data

How the results depend on the processing

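Depth limits the low genes: in liver the medians of *Aurkb* and *Ccnb1* were 2 counts. The number of genes past the threshold in the tissue comparisons was 6, 1 and 3 for liver against lung, liver against kidney and lung against kidney, and with no replicate block, in place of the pairing by mouse, it was also 6, 1 and 3. In liver against kidney it was 2 with no filter on low counts, 7 on log2(TPM + 0.1) and 7 with no threshold on the fold change. In lung against kidney and in liver against lung it was also 7 with no threshold on the fold change. On log2(TPM + 0.1) *Rrm2* and *Cdk1* were also past the threshold in liver against lung (-1.25 for each), where the median of all genes was -1.52. In lung against kidney *Plk1* was past it on that scale (1.28), and *Aurkb* was not on log2(TPM + 1) (0.94). Over all genes, liver against lung gave 12142 with no filter, 12652 on log2(TPM + 0.1) and 11343 with no threshold on the fold change, liver against kidney 8250 on log2(TPM + 0.1) and 10665 with no threshold, and lung against kidney 8935 and 11016. The counts with no threshold are out of 12127 genes, so the 7 genes passing there are close to the background. The settings with no filter and on log2(TPM + 0.1) tested more genes than these 12127. *Cdk1* in liver against lung changed sign with DESeq2 size factors (-0.14), DESeq2 (-0.18), no replicate block (-0.0041), log2(TPM + 1) (-0.75) and log2(TPM + 0.1) (-1.25), and in liver against kidney with log2(TPM + 1) (-0.26) and log2(TPM + 0.1) (-0.40). *Rrm2* changed sign with log2(TPM + 1) and log2(TPM + 0.1) in liver against lung (-0.91 and -1.25) and lung against kidney (0.031 and 0.050). The scalings differ in the median of all genes, and the cause of each change was not otherwise tested.

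Correlations of a gene between tissues fell from 3 called to 0 on TPM without TMM, 0 without the 2 farthest strains and 1 on residuals from depth. Correlations with marker lists in kidney went from 4 called to 26 on TPM without TMM, 0 without 2 strains, 1 on depth residuals and 0 without CC016, CC020 and CC040. In lung they went from 1 to 6 on log2(CPM + 0.5), 82 on TPM without TMM and 0 in the other 3 settings, and in liver from 1 to 6, 10 and 0. The cause was not tested. The settings without CC016, CC020 or CC040, and the ratio to *Mki67*, were chosen after seeing the data.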

Other observations

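Regulators that act before the wave of the proliferation genes were also counted. Of 7 G1 cyclins and kinases, 4 passed the filter. In liver against lung 2 were higher in lung, in liver against kidney 1 in kidney, in lung against kidney 1 in lung, and 0 were higher in the other tissue of each pair. The shares over all genes in these directions were 31.0%, 20.8% and 25.5%, and the counts of 4 genes were not tested against them. *Ccnd2*, encoding cyclin D2, was higher in lung than in liver by 2.42 ± 0.07 log2 units (5.35-fold, 47 of 47 mice) and than in kidney by 2.59 ± 0.07. *Ccnd1*, encoding cyclin D1, had a median of 8.06 TPM in liver, 125 in lung and 157 in kidney, and was lower in liver by 2.20 ± 0.11 against lung and 3.18 ± 0.11 against kidney.

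Of 13 genes that restrain the cycle, 9 passed the filter, and in liver against lung 3 were higher in lung and 0 in liver. In liver against kidney 4 were higher in kidney and 0 in liver, and in lung against kidney 2 were higher in each. Of all genes, 31.0% were higher in lung than in liver, 20.8% higher in kidney than in liver and 25.5% higher in lung than in kidney, so that 3 of 9 in the first and 2 of 9 in the last are near the background. *Cdkn2b*, encoding the CDK inhibitor p15, was higher in lung than in liver by 5.16 ± 0.11 (35.7-fold) and than in kidney by 3.31 ± 0.10 (9.89-fold), each in 47 of 47 mice. *Btg2*, an antiproliferative gene, had a median of 157 TPM in lung, 10.1 in liver and 18.1 in kidney. *Ccng1*, encoding cyclin G1, was highest in kidney (229 TPM), higher than in lung by 1.46 ± 0.06 and than in liver by 1.89 ± 0.06, and *Gadd45a* was higher in kidney than in lung by 1.63 ± 0.10. The median r over strains of this list with the mean of the proliferation genes was 0.05 over 7 genes of liver, 0.16 over 9 of lung and 0.0085 over 9 of kidney. On the log2(TPM + 1) scale *Ccng1* and *Gadd45a* kept the direction of lung against kidney but differed by under 1.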
